A study of Mus musculus with 18 samples.

Results

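Kidneys lacking Ecm1 were compared between 1 and 2 weeks of age, a period in which the tubules of the mouse kidney take on adult work. The members were chosen by their labels: the 3 RNA sequencing libraries of Ecm1 knockout (KO) kidney at 2 weeks and the 3 of KO kidney at 1 week, 6 of the 18 libraries of the study. The study sequenced mRNA from whole kidney tissue of wild-type (WT) and KO mice at 1, 2 and 4 weeks, with 3 libraries in each group. Its product is a glycoprotein that cells secrete into the surrounding matrix. Both KO groups carry the same genotype and differ in age alone as far as the labels say, and the WT groups of the same ages were used to ask whether the step differed by genotype. The labels give neither strain, sex nor the allele. They also leave unsaid whether each library is a different animal, and the p-values below reflect the variation among libraries, which may in part be technical.

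In the mouse, nephrons form from a cap of progenitor cells at the tips of the branching ureteric tree, within a stroma of mesenchymal cells, and this formation ends shortly after birth. The tubule cells then acquire transporters, peptidases and mitochondria, and the kidney takes up glucose production, vitamin D activation and the concentrating of urine. Glomeruli reach their final number while the tubules go on growing. In these bulk libraries fewer cells of a type and less RNA per cell cannot be told apart.

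Levels are given as CPM, counts scaled to a common library size with TMM factors, for replicates 1, 2 and 3 in that order. Changes are log2 fold changes of 2 weeks over 1 week ± SE from edgeR's quasi-likelihood test, and a gene was called, and is said to have risen or fallen, at a Benjamini-Hochberg adjusted p under 0.05 over all 14774 genes tested. The 6 KO libraries held between 15222669 and 21234102 counts. Ecm1 itself (ENSMUSG00000028108, chromosome 3 from 95734147 to 95739569 in GENCODE M21 of GRCm38) had 2, 0 and 0 counts in the KO libraries of 1 week and 0, 0 and 1 in those of 2 weeks, against 653 to 1315 counts in the WT libraries of the same ages. The KO labels were thus met by the counts of the targeted gene in all 6 libraries.

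Sex moved with age in the KO libraries. The summed level of the Y-linked genes Ddx3y, Eif2s3y, Kdm5d and Uty was 0.131, 0 and 0 CPM at 1 week and 186, 133 and 128 CPM at 2 weeks, so the 3 libraries of 1 week carried no Y-linked RNA to speak of and the 3 of 2 weeks did. In the KO kidney alone, age and sex therefore cannot be told apart. WT kidneys held both sexes at each age (1 of 3 libraries with Y-linked RNA at 1 week, 2 of 3 at 2 weeks), and a fit of the 12 libraries of these ages with sex as a covariate called 7 genes for sex, 4 of them higher in males. That fit called 515 rises (3.53% of 14571 genes tested) and 615 falls (4.22%) for the KO step, and the same covariate over all 18 libraries called 723 rises (4.89% of 14774) and 746 falls (5.05%). Of the 2881 genes called without the covariate, 1014 remained called over 12 libraries and 1314 over 18, and 2873 and 2879 kept their sign. In the fit of 12 libraries the sex term rests on the WT libraries alone, since neither KO group holds both sexes. It is carried over to KO kidney as if equal in both genotypes. Over 18 libraries the KO libraries of 4 weeks, which hold both sexes, enter it too. Whether calls were lost to sex or to a less precise estimate was not tested. For most groups below, the rises and falls in WT kidney and in the KO step under both covariate fits are given; the fit of 12 libraries was chosen after seeing the data.

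Between 1 and 2 weeks 1527 genes rose (10.3% of those tested) and 1354 fell (9.16%), 19.5% in all. On simulated counts the KO step test recovered 73% of 2-fold and 99% of 4-fold changes, and the test of the difference between genotypes was not simulated. The simulation changed 100 genes at each fold, none of them of low level, and 11 unchanged genes were called. It held no difference of sex, so its recovery does not extend to genes of low level or to the mix of age and sex. The change was at least 2-fold for 420 rises and 592 falls, and at least 8-fold for 37 rises and 62 falls. The 3 libraries of 2 weeks lay wholly above or below the 3 of 1 week in 5654 genes (38.3%), among them 2839 of the 2881 called. For a called gene named below, separation of the ages thus adds little to its call. Leaving out 1 library kept 1370 of the calls in every one of 6 fits. Without replicate 2 of 1 week the counts were 896 rises and 805 falls, and without replicate 2 of 2 weeks they were 951 and 751. The split between rises and falls rests on the scaling: with library totals in place of TMM factors 759 genes rose (5.14%) and 2859 fell (19.4%), and the median of all genes moved from 0.00 to -0.21 on the log2 scale. In WT kidney the same step called 1842 rises (12.5%) and 1639 falls (11.1%). RNA of the mitochondrial genome took 8.80% to 10.1% of counts at 1 week and 11.8% to 14.2% at 2 weeks.

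The libraries of 2 weeks were less alike than those of 1 week. Pairs of libraries of 1 week differed by at least 2-fold in 366 to 499 genes, and pairs of 2 weeks in 695 to 1433. On the first principal component of the 6 libraries, which held 56.8% of the variance, the 1 week libraries lay at -36.4, -43.9 and -36.4 and the 2 week libraries at 49.2, 45.5 and 22.0. Replicate 3 of 2 weeks was thus the least far along that axis, and it was the 2 week library nearest to 1 week in 1792 of the 2881 called genes, against 778 for replicate 1 and 311 for replicate 2. Its markers of fat stood out too: Adipoq, the adipocyte hormone, measured 0.745, 0 and 1.92 CPM at 1 week and 0.0545, 0 and 8.0 CPM at 2 weeks, and Cidea, a lipid droplet protein of brown fat, 0.701, 0 and 4.47 CPM at 1 week and 0, 0.0451 and 13.8 CPM at 2 weeks. The summed level of 13 adipocyte genes, 10 of them tested and 0 called, was 109.7 to 140.0 CPM at 1 week and 92.5, 112 and 232 CPM at 2 weeks. Its part in the position of replicate 3 was not tested.

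**Figure D1:**
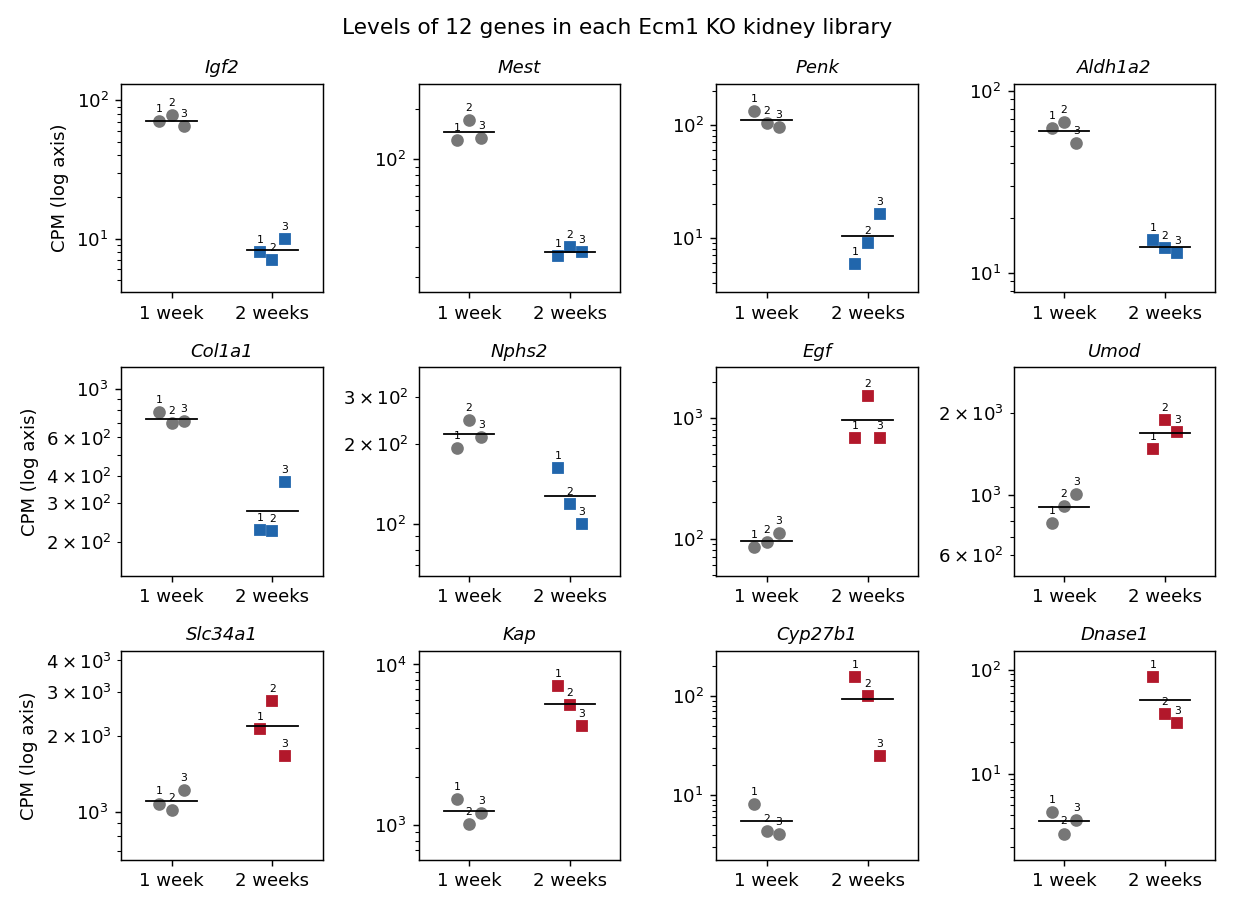
Levels of 12 genes in the 6 Ecm1 KO kidney libraries, as CPM on a log axis, with 1 week as circles and 2 weeks as squares (blue for genes that fell, red for genes that rose), numbers for the replicates and a line at the mean. The 2 ages do not overlap in any of the 12 genes, and Cyp27b1 spans 25.1 to 157 CPM among the 2 week libraries.

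Most fetal growth genes fell. Of 16 tested genes of the imprinted and fetal growth program, 10 fell and 0 rose, with a median log2 fold change of -1.18 against 0.00 over all genes. Igf2, the fetal insulin-like growth factor expressed from the paternal allele, measured 71.0, 77.8 and 64.7 CPM at 1 week and 7.96, 6.95 and 9.99 CPM at 2 weeks (log2 fold change -3.10 ± 0.26, adjusted p = 4.94e-06). Mest, another paternally expressed gene, measured 129, 171 and 134 CPM at 1 week and 26.7, 30.0 and 27.9 CPM at 2 weeks (log2 fold change -2.36 ± 0.19, adjusted p = 3.77e-06). Grb10, a maternally expressed inhibitor of insulin and growth factor receptors, measured 195, 218 and 200.2 CPM at 1 week and 87.1, 93.5 and 89.1 CPM at 2 weeks (log2 fold change -1.18 ± 0.09, adjusted p = 3.77e-06). In these 3 genes every 2 week library lay below every 1 week library, and the 2 week libraries spread by less than they had dropped. The chromatin protein gene Hmga2 fell by 2.58 on the log2 scale and the RNA-binding protein gene Igf2bp3 by 2.21, both known for high levels in growing fetal tissue. Igf1r, a receptor through which Igf2 acts, was not called, at 0.40 ± 0.14 with an adjusted p of 0.0607. Fetal growth rises and falls were 0 and 12 in WT kidney. Fetal growth counts in KO kidney with sex as a covariate were 0 and 6 over 12 libraries and 0 and 7 over 18.

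Part of the genes of nephron formation fell. In the stromal list 10 of 15 fell and 1 rose (median -1.10), while 5 of 16 progenitor genes and 3 of 15 ureteric tip genes fell and none of either rose. Penk, a marker of the medullary stroma, measured 131, 104 and 95.5 CPM at 1 week and 5.83, 9.07 and 16.3 CPM at 2 weeks (log2 fold change -3.40 ± 0.55, adjusted p = 5.91e-04). Aldh1a2, which makes the retinoic acid that stroma sends to the ureteric tree, measured 62.2, 67.2 and 51.9 CPM at 1 week and 15.2, 13.7 and 12.8 CPM at 2 weeks (log2 fold change -2.12 ± 0.24, adjusted p = 4.84e-05). Foxd1, the transcription factor of cortical stroma, was low at both ages, with 10.3, 10.8 and 9.28 CPM at 1 week and 5.13, 4.83 and 4.21 CPM at 2 weeks (log2 fold change -1.10 ± 0.25, adjusted p = 0.0064). All 3 stromal genes separated the ages without overlap. Stromal rises and falls were 0 and 10 in WT kidney. Stromal counts in KO kidney with sex as a covariate were 0 and 6 over 12 libraries and 0 and 7 over 18.

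Among progenitor markers, Six2 did not pass the filter on low counts and Cited1, the marker of the least committed progenitors, measured 1.88, 1.55 and 1.83 CPM at 1 week and 0.981, 2.80 and 1.14 CPM at 2 weeks, which overlapped (log2 fold change -0.09 ± 0.62, adjusted p = 0.936). Eya1, a partner of Six2, was near 1 CPM at 1 week and measured 1.05, 1.55 and 1.15 CPM at 1 week and 0.382, 0.677 and 0.379 CPM at 2 weeks (log2 fold change -1.36 ± 0.36), but its call was lost in 3 of the 6 fits without 1 library, where its adjusted p ran from 0.019 to 0.0783. Cited1 and Eya1 were thus below 2 CPM at 1 week already. Itga8, the integrin through which progenitors and later mesangial cells bind the matrix, measured 144, 146 and 167 CPM at 1 week and 89.1, 80.2 and 90.3 CPM at 2 weeks (log2 fold change -0.81 ± 0.18, adjusted p = 0.00438). Over the 6 fits without 1 library between 2 and 6 of the progenitor genes fell, the fewest without replicate 2 of 1 week. Progenitor rises and falls were 1 and 3 in WT kidney. Progenitor counts in KO kidney with sex as a covariate were 0 and 2 over 12 libraries and 0 and 0 over 18.

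The 3 ureteric tip genes that fell, Etv4, Wnt11 and Etv5, are known to act downstream of the Ret receptor. Ret measured 2.28, 1.93 and 1.54 CPM at 1 week and 1.42, 1.99 and 2.60 CPM at 2 weeks, with overlapping ages (log2 fold change 0.07 ± 0.40, adjusted p = 0.931). Wnt11, the tip ligand, measured 22.8, 23.5 and 22.7 CPM at 1 week and 13.0, 12.4 and 11.5 CPM at 2 weeks (log2 fold change -0.90 ± 0.22, adjusted p = 0.00893), and the ETS factor gene Etv4 measured 2.28, 2.52 and 1.83 CPM at 1 week and 0.872, 0.226 and 0.189 CPM at 2 weeks (log2 fold change -2.38 ± 0.52, adjusted p = 0.00461). Etv5 fell by 0.87, but that call was lost in 4 of the 6 fits without 1 library, where its adjusted p ran from 0.0298 to 0.0825. Tip rises and falls were 0 and 3 in WT kidney. Tip counts in KO kidney with sex as a covariate were 0 and 0 over 12 libraries and 0 and 2 over 18. Among genes of early nephron differentiation, 4 of 17 fell and 1 rose. Sox11, a factor of immature epithelium, measured 6.84, 9.26 and 8.07 CPM at 1 week and 1.20, 1.13 and 1.28 CPM at 2 weeks (log2 fold change -2.74 ± 0.32, adjusted p = 5.52e-05), whereas Irx3, a factor of the intermediate nephron segments, measured 31.0, 26.4 and 25.1 CPM at 1 week and 44.6, 41.7 and 43.1 CPM at 2 weeks (log2 fold change 0.65 ± 0.14, adjusted p = 0.00443). Wnt4, which turns progenitors into epithelium, differed among the 2 week libraries, at 32.6, 31.8 and 26.5 CPM at 1 week and 4.09, 6.68 and 22.0 CPM at 2 weeks (log2 fold change -1.47 ± 0.61, adjusted p = 0.102). Differentiation rises and falls were 4 and 5 in WT kidney. Differentiation counts in KO kidney with sex as a covariate were 0 and 3 over 12 libraries and 0 and 1 over 18.

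**Figure D2:**
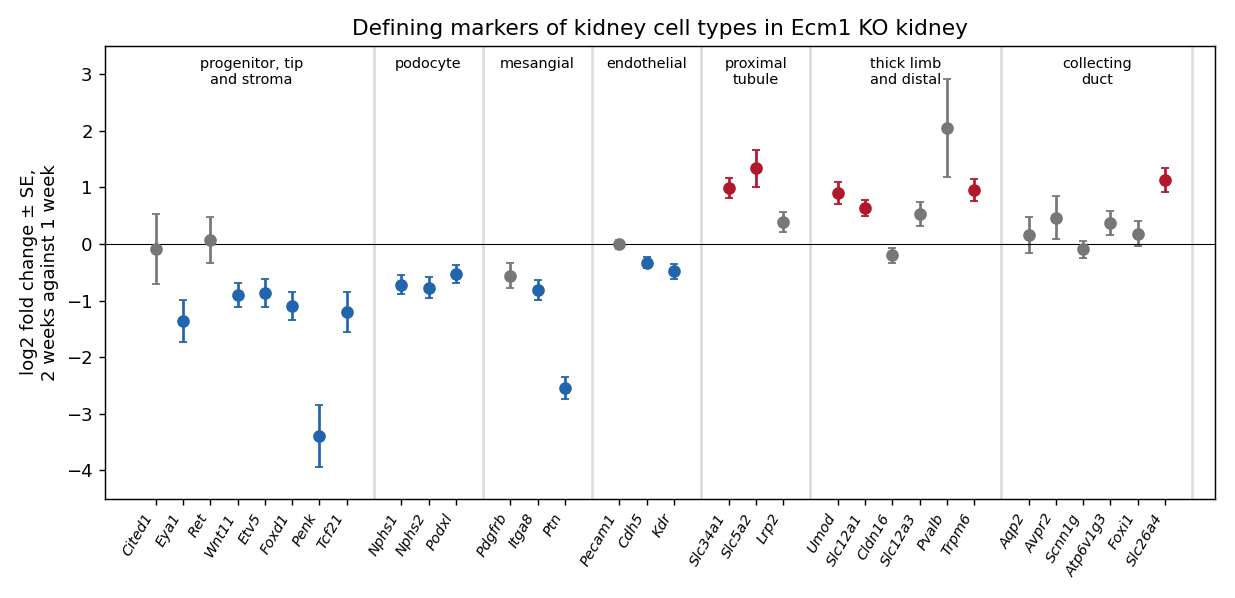
Log2 fold change ± SE of defining markers of kidney cell types, 2 weeks against 1 week in Ecm1 KO kidney (blue fell, red rose, grey not called). Stromal, podocyte and mesangial markers lie below 0, proximal tubule and thick limb markers mostly above it, and Penk is the lowest at -3.40.

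Proliferation genes were lower in nearly every case but few passed the test. All 30 tested cell cycle genes had a negative fold change (median -0.72) and 7 fell, and of 28 DNA replication genes 27 were negative (median -0.61) and 10 fell, with 0 rises in either list. Mybl2, a transcription factor of dividing cells, measured 7.32, 8.24 and 6.63 CPM at 1 week and 2.45, 2.66 and 3.17 CPM at 2 weeks (log2 fold change -1.42 ± 0.23, adjusted p = 5.23e-04). Cenpa, the histone that marks centromeres, measured 13.7, 14.7 and 15.7 CPM at 1 week and 7.58, 7.90 and 8.48 CPM at 2 weeks (log2 fold change -0.88 ± 0.18, adjusted p = 0.00348). Mcm4, a subunit of the replicative helicase, measured 45.1, 46.9 and 47.2 CPM at 1 week and 22.1, 27.3 and 33.2 CPM at 2 weeks (log2 fold change -0.75 ± 0.17, adjusted p = 0.0058). These 3 genes separated the ages, while the common proliferation marker Mki67 did not, at 78.1, 159 and 135 CPM at 1 week and 73.5, 75.6 and 103 CPM at 2 weeks (log2 fold change -0.56 ± 0.33, adjusted p = 0.253). In the 2 week libraries proliferation genes ran lowest in replicate 1 and highest in replicate 3, as in Uhrf1, which keeps DNA methylation through replication, with 40.5, 43.6 and 45.4 CPM at 1 week and 13.6, 20.0 and 28.7 CPM at 2 weeks. Its call was lost in 5 of the 6 fits without 1 library, where its adjusted p ran from 0.015 to 0.115. Across the 6 fits without 1 library between 2 and 6 cell cycle genes and between 2 and 10 replication genes fell. In WT kidney 9 and 13 fell. The covariate fit called 6 and 11 falls over 12 libraries and 17 and 16 over 18, and library totals gave 16 and 19, so the counts moved with the fit in both directions.

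Promoters of dividing-cell genes are known for paired CCAAT boxes, and the RefSeq promoters of these lists (GRCm38.p6) are shown here because their members moved together. In the 250 bases before the start, CCAAT on either strand was found at 33.8% of all 32851 starts, 34.8% of starts of tested genes, 34.5% of starts of genes that fell and 35.9% of those that rose. It was found at 19 of 26 starts (73.1%) of 25 matched cell cycle genes and 17 of 28 starts (60.7%) of 23 matched replication genes. The share among all genes that fell thus stood near that of all genes tested. A match is a description, not a site in use. Below, the 100 bases nearest to a box that overlap no annotated exon are given for 4 genes that fell, 5′ to 3′ on the gene's strand, with the box in capitals (ATTGG where it lies on the other strand).
Ttk, chr9:83834589-83834688, plus strand: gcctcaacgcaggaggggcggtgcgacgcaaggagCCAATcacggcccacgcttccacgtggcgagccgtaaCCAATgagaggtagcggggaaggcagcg
Bub1b, chr2:118598050-118598149, plus strand: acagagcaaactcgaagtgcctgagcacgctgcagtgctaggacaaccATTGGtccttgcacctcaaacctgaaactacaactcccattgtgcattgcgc
Mcm3, chr1:20820313-20820412, minus strand: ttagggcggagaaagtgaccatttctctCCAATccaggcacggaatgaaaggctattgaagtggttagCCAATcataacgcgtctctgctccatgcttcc
Mcm2, chr6:88898904-88899003, minus strand: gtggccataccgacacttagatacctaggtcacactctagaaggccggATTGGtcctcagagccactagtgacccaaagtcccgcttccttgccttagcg
Ttk, a spindle checkpoint kinase, and Mcm3, a helicase subunit, each hold 2 boxes in the printed stretch, and Bub1b, another checkpoint kinase, and Mcm2 hold 1. Mcm3 measured 50.7, 52.8 and 50.1 CPM at 1 week and 23.3, 25.7 and 34.0 CPM at 2 weeks (log2 fold change -0.89 ± 0.23, adjusted p = 0.0119), with no overlap, and this call was lost in 2 of the 6 fits without 1 library, where its adjusted p ran from 0.0087 to 0.0568. Mcm2 fell by 0.61, a call lost in 2 of the 6 fits without 1 library, where its adjusted p ran from 0.0136 to 0.076. Bub1b measured 29.0, 30.7 and 28.5 CPM at 1 week and 12.7, 16.0 and 22.6 CPM at 2 weeks (log2 fold change -0.78 ± 0.26, adjusted p = 0.0425), a call lost in 5 of the 6 fits without 1 library, where its adjusted p ran from 0.0162 to 0.148. Ttk, at -0.83 ± 0.28, kept its call in none of those fits.

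Most podocyte genes fell, while the RNA of 2 type IV collagen genes on the same list rose. These whole kidney values do not place either change in the glomerulus. Of 25 podocyte genes 14 fell and 2 rose (median -0.64), and of 20 mesangial and pericyte genes 9 fell and 1 rose (median -0.65). Nphs1, the nephrin of the slit diaphragm, measured 60.5, 84.5 and 70.2 CPM at 1 week and 51.4, 43.1 and 36.1 CPM at 2 weeks (log2 fold change -0.72 ± 0.17, adjusted p = 0.00664). Ptpro, a phosphatase on the podocyte surface, measured 71.9, 92.1 and 75.4 CPM at 1 week and 42.8, 45.1 and 46.1 CPM at 2 weeks (log2 fold change -0.84 ± 0.13, adjusted p = 5.36e-04). Both fell without overlap, by less than 2-fold. The 2 podocyte genes that rose were Col4a3, at 293, 227 and 294 CPM at 1 week and 564, 686 and 656 CPM at 2 weeks (log2 fold change 1.23 ± 0.20, adjusted p = 7.46e-04), and Col4a4, at 380.3, 292 and 371 CPM at 1 week and 546, 657 and 645 CPM at 2 weeks (log2 fold change 0.83 ± 0.16, adjusted p = 0.00237). They encode chains of the type IV collagen that replaces the fetal network in the mature glomerular filter. Podocyte rises and falls were 2 and 13 in WT kidney. Podocyte counts in KO kidney with sex as a covariate were 0 and 4 over 12 libraries and 1 and 4 over 18. Col4a3 stood at 1.08 in WT kidney, and in KO kidney at 0.94 over 12 libraries (adjusted p = 0.077) and 0.81 over 18 (adjusted p = 0.0398). Wt1, a factor of podocytes and progenitors, fell by 0.96, a call lost in 3 of the 6 fits without 1 library, where its adjusted p ran from 0.0135 to 0.102.

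Mesangial cells, which the study's title names as the source of Ecm1, hold the capillary loops together. Ptn, a heparin-binding growth factor, measured 82.5, 85.5 and 57.0 CPM at 1 week and 12.2, 11.1 and 15.4 CPM at 2 weeks (log2 fold change -2.54 ± 0.19, adjusted p = 3.61e-06). Serpine2, a protease inhibitor, measured 168, 151 and 151 CPM at 1 week and 70.1, 63.7 and 85.4 CPM at 2 weeks (log2 fold change -1.10 ± 0.19, adjusted p = 9.64e-04). Pdgfrb, the receptor that recruits mesangial cells, measured 117, 141 and 145 CPM at 1 week and 70.6, 96.1 and 106 CPM at 2 weeks (log2 fold change -0.56 ± 0.22, adjusted p = 0.0832). Ptn and Serpine2 fell beyond their spread and Pdgfrb was not called. Smooth muscle genes fell in 4 of 12, led by Acta2, the smooth muscle actin, at 383, 325 and 315 CPM at 1 week and 66.6, 81.4 and 154 CPM at 2 weeks (log2 fold change -1.76 ± 0.31, adjusted p = 0.00107). Mesangial rises and falls were 0 and 8 in WT kidney. Mesangial counts in KO kidney with sex as a covariate were 1 and 8 over 12 libraries and 1 and 3 over 18. Smooth muscle rises and falls were 0 and 5 in WT kidney. Smooth muscle counts in KO kidney with sex as a covariate were 0 and 1 over 12 libraries and 0 and 2 over 18. Endothelial genes were called in 5 of 24, near the 19.5% of all genes, with 4 falls and 1 rise (median -0.07). Plvap, which spans the pores of peritubular capillaries, measured 193, 159.7 and 177 CPM at 1 week and 267, 312 and 312 CPM at 2 weeks (log2 fold change 0.75 ± 0.13, adjusted p = 9.33e-04), while Pecam1, a marker of all endothelium, measured 159, 169.8 and 156 CPM at 1 week and 165, 176 and 140.4 CPM at 2 weeks (log2 fold change -0.01 ± 0.09, adjusted p = 0.962). Between 0 and 3 endothelial genes fell in the 6 fits without 1 library, and Plvap rose in each of them. Plvap stands on the mesangial and pericyte list too and is the 1 rise counted there. Endothelial rises and falls were 0 and 7 in WT kidney. Endothelial counts in KO kidney with sex as a covariate were 1 and 2 over 12 libraries and 1 and 1 over 18.

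Most interstitial matrix genes fell. Of 30 genes of fibroblasts and fibrillar matrix 17 fell and 0 rose, with 29 negative and a median of -1.02. Col1a1, the main chain of type I collagen, measured 785, 698 and 713 CPM at 1 week and 227, 223 and 375 CPM at 2 weeks (log2 fold change -1.41 ± 0.33, adjusted p = 0.0068). Eln, which encodes elastin, measured 299, 296 and 259.8 CPM at 1 week and 145, 155 and 134 CPM at 2 weeks (log2 fold change -0.98 ± 0.15, adjusted p = 4.20e-04). Thbs2, a matrix glycoprotein, measured 181, 187 and 141 CPM at 1 week and 34.8, 33.5 and 50.6 CPM at 2 weeks (log2 fold change -2.10 ± 0.25, adjusted p = 6.17e-05). In all 3 the ages were apart, and Col1a1 was highest in replicate 3 of 2 weeks. Of 40 tested collagen genes 23 fell and 3 rose, among the falls Col2a1 at -2.75 and Col8a2 at -2.73. Matrix gene rises and falls were 0 and 22 in WT kidney. Matrix gene counts in KO kidney with sex as a covariate were 0 and 20 over 12 libraries and 0 and 12 over 18.

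Basement membrane genes fell in large part. Of 30 such genes 15 fell and 2 rose, the rises being Col4a3 and Col4a4. Basement membrane rises and falls were 2 and 16 in WT kidney. Basement membrane counts in KO kidney with sex as a covariate were 0 and 12 over 12 libraries and 1 and 11 over 18. Lama1, the laminin chain of the embryonic kidney, measured 137, 186 and 133 CPM at 1 week and 59.2, 55.8 and 65.9 CPM at 2 weeks (log2 fold change -1.33 ± 0.16, adjusted p = 7.63e-05). Lamb1, an early laminin chain, measured 666, 705 and 632 CPM at 1 week and 474, 419.8 and 438 CPM at 2 weeks (log2 fold change -0.59 ± 0.10, adjusted p = 7.67e-04), and Col4a1, a chain of the fetal collagen network, measured 2935, 3123 and 3082 CPM at 1 week and 2172, 2062 and 1866 CPM at 2 weeks (log2 fold change -0.58 ± 0.13, adjusted p = 0.00645). In none of these 3 genes did a library of 2 weeks reach one of 1 week. Fras1, which anchors epithelium to its membrane, fell by 0.73. Among matrix proteases and their inhibitors 10 of 29 fell and 2 rose. Serpinh1, the chaperone of collagen folding, measured 569, 548 and 531 CPM at 1 week and 236, 333 and 350.4 CPM at 2 weeks (log2 fold change -0.84 ± 0.16, adjusted p = 0.00186), and Mmp16, a membrane-bound protease, measured 16.1, 10.4 and 16.9 CPM at 1 week and 3.16, 3.11 and 6.91 CPM at 2 weeks (log2 fold change -1.72 ± 0.39, adjusted p = 0.00635). Timp3, a protease inhibitor held in the matrix, went the other way with 593, 599.7 and 617 CPM at 1 week and 924, 944 and 924 CPM at 2 weeks (log2 fold change 0.63 ± 0.13, adjusted p = 0.00405). Between 4 and 12 protease genes fell in the 6 fits without 1 library, the fewest without replicate 2 of 2 weeks. Protease and inhibitor rises and falls were 2 and 11 in WT kidney. Protease and inhibitor counts in KO kidney with sex as a covariate were 0 and 6 over 12 libraries and 1 and 5 over 18.

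**Figure D3:**
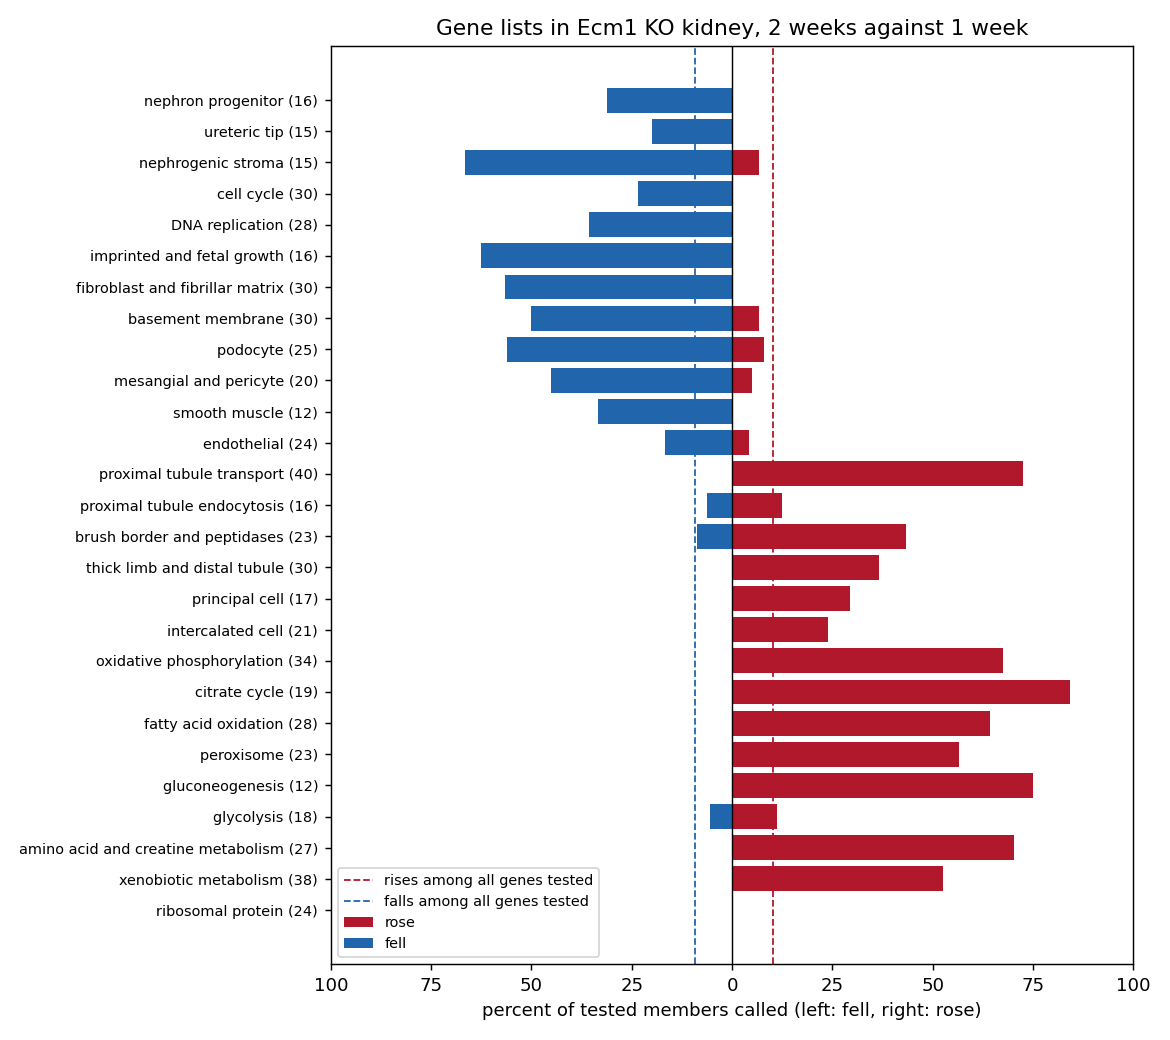
Percent of the tested members of each gene list that fell (left, blue) or rose (right, red) between 1 and 2 weeks in Ecm1 KO kidney, with the number tested in brackets and dashed lines at the shares over all genes (10.3% rises, 9.16% falls). Stromal, matrix and glomerular lists lie to the left, tubular and metabolic lists to the right, and none of the 24 listed ribosomal protein genes was called.

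RNA of most listed transport genes of the proximal tubule, which reclaims most of the filtered solutes, was higher at 2 weeks. Of 40 transport genes 29 rose and 0 fell, with 38 positive and a median of 1.03. Slc34a1, the main phosphate transporter of the brush border, measured 1078, 1016 and 1214 CPM at 1 week and 2133, 2759 and 1665 CPM at 2 weeks (log2 fold change 0.99 ± 0.17, adjusted p = 0.00107). Slc3a1, a subunit of the cystine transporter, measured 229, 217 and 224 CPM at 1 week and 921, 766 and 542 CPM at 2 weeks (log2 fold change 1.73 ± 0.20, adjusted p = 5.52e-05). Aqp1, the water channel of proximal tubule and thin limb, measured 512, 442 and 498 CPM at 1 week and 982, 917 and 912 CPM at 2 weeks (log2 fold change 0.95 ± 0.11, adjusted p = 5.75e-05). The rises were beyond the spread, though replicate 3 of 2 weeks was the lowest of its age in each of the 3. Transport rises and falls were 29 and 0 in WT kidney. Transport counts in KO kidney with sex as a covariate were 13 and 0 over 12 libraries and 19 and 1 over 18. Over the whole solute carrier family (symbols starting with Slc) 94 of 317 tested genes rose and 21 fell.

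Genes of protein uptake were called in 3 of 16, near the 19.5% of all genes, with 2 rises and 1 fall (median 0.06), and the median turned to -0.16 with library totals. Lrp2, the megalin receptor, measured 1364, 1465 and 1375 CPM at 1 week and 2274, 1792 and 1407 CPM at 2 weeks (log2 fold change 0.38 ± 0.18, adjusted p = 0.142), and Cubn, its partner cubilin, 434, 437 and 419.8 CPM at 1 week and 552, 434 and 375 CPM at 2 weeks (log2 fold change 0.08 ± 0.14, adjusted p = 0.762). Both overlapped between ages and neither was called. Folr1, the folate receptor of the brush border, measured 155, 119 and 132 CPM at 1 week and 327, 235 and 161 CPM at 2 weeks (log2 fold change 0.83 ± 0.20, adjusted p = 0.00932), a call lost in 1 of the 6 fits without 1 library, where its adjusted p ran from 8.12e-04 to 0.0534. Among 23 brush border and peptidase genes 10 rose and 2 fell. Dnase1, the secreted nuclease, had the clearest rise, at 4.29, 2.68 and 3.60 CPM at 1 week and 84.2, 37.7 and 30.4 CPM at 2 weeks (log2 fold change 3.84 ± 0.37, adjusted p = 1.97e-05). Alpl, an alkaline phosphatase, measured 91.9, 85.5 and 92.3 CPM at 1 week and 341, 360.5 and 243 CPM at 2 weeks (log2 fold change 1.81 ± 0.19, adjusted p = 2.98e-05). Falling against the rest were Enpep, the aminopeptidase that degrades angiotensin, at 421, 438 and 371 CPM at 1 week and 297, 248 and 238 CPM at 2 weeks (log2 fold change -0.65 ± 0.13, adjusted p = 0.00268), and Anpep, at -0.52. Between 6 and 12 genes of this list rose in the fits without 1 library. Endocytosis rises and falls were 3 and 0 in WT kidney. Endocytosis counts in KO kidney with sex as a covariate were 1 and 0 over 12 libraries and 2 and 0 over 18. Brush border rises and falls were 8 and 2 in WT kidney. Brush border counts in KO kidney with sex as a covariate were 4 and 0 over 12 libraries and 5 and 0 over 18.

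Transcription factors of the nephron rose in 12 of 27, with 1 fall. Hnf4a, which drives proximal tubule maturation, measured 325, 278 and 307 CPM at 1 week and 693, 594 and 478 CPM at 2 weeks (log2 fold change 0.96 ± 0.14, adjusted p = 3.58e-04). Ppara, the receptor that controls fat oxidation, measured 11.7, 8.99 and 11.8 CPM at 1 week and 35.7, 40.9 and 19.8 CPM at 2 weeks (log2 fold change 1.57 ± 0.31, adjusted p = 0.00233). Thrb, a thyroid hormone receptor, rose by 1.10, Esrrb, an orphan receptor, by 1.60 and Nr1h3, a sterol receptor, by 1.49 on the log2 scale. These 5 genes encode nuclear receptors. Between 7 and 11 of the list rose in the fits without 1 library. Transcription factor rises and falls were 13 and 1 in WT kidney. Transcription factor counts in KO kidney with sex as a covariate were 5 and 0 over 12 libraries and 7 and 0 over 18.

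Most genes of 5 metabolic lists rose and none fell. In gluconeogenesis and fructose metabolism 9 of 12 rose (median 0.99), in amino acid and creatine metabolism 19 of 27 (median 0.98), in fatty acid oxidation 18 of 28 (median 0.60), in the peroxisome 13 of 23 (median 0.57) and in the citrate cycle 16 of 19 (median 0.42), with 0 falls in each. Khk, ketohexokinase, measured 76.9, 58.4 and 67.9 CPM at 1 week and 218, 199.7 and 148 CPM at 2 weeks (log2 fold change 1.48 ± 0.20, adjusted p = 1.62e-04). G6pc, the enzyme that releases free glucose, measured 292, 285 and 243 CPM at 1 week and 1308, 856 and 469 CPM at 2 weeks (log2 fold change 1.68 ± 0.42, adjusted p = 0.00995), a call lost in 1 of the 6 fits without 1 library, where its adjusted p ran from 0.00311 to 0.051. In both genes replicate 1 was the highest and replicate 3 the lowest library of 2 weeks, and G6pc spanned a more than 2-fold range within that age. Pck1, the entry enzyme of the pathway, measured 1447, 1199 and 1208 CPM at 1 week and 4219, 3232 and 1659 CPM at 2 weeks (log2 fold change 1.24 ± 0.37, adjusted p = 0.0268), and its call was lost in 5 of the 6 fits without 1 library, where its adjusted p ran from 0.0064 to 0.115. Gluconeogenesis rises and falls were 10 and 0 in WT kidney. Gluconeogenesis counts in KO kidney with sex as a covariate were 4 and 0 over 12 libraries and 5 and 0 over 18.

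Enzymes that break down amino acids held some of the largest rises. Hpd, an early enzyme of tyrosine breakdown, measured 0.482, 0 and 0.0961 CPM at 1 week and 24.7, 19.1 and 6.96 CPM at 2 weeks (log2 fold change 6.30 ± 1.14, adjusted p = 0.00138), and Hgd, which acts further along the same route, 66.4, 46.8 and 60.7 CPM at 1 week and 191, 224 and 148 CPM at 2 weeks (log2 fold change 1.69 ± 0.18, adjusted p = 3.06e-05). Kmo, of the kynurenine route from tryptophan, measured 14.4, 8.88 and 13.4 CPM at 1 week and 58.7, 66.0 and 36.0 CPM at 2 weeks (log2 fold change 2.13 ± 0.31, adjusted p = 2.94e-04). Hpd was all but silent at 1 week, unlike Hgd and Kmo. Of fat metabolism, Slc27a2, a fatty acid transporter and CoA ligase, measured 347, 314 and 358 CPM at 1 week and 1781, 1310.2 and 891 CPM at 2 weeks (log2 fold change 1.97 ± 0.26, adjusted p = 1.54e-04), and Acaa2, the thiolase of mitochondrial oxidation, 184, 159 and 181 CPM at 1 week and 429, 412 and 274 CPM at 2 weeks (log2 fold change 1.09 ± 0.19, adjusted p = 0.00107). Cat, the catalase of peroxisomes, measured 273, 237 and 257 CPM at 1 week and 642, 645 and 529 CPM at 2 weeks (log2 fold change 1.24 ± 0.13, adjusted p = 2.53e-05). All of these separated the ages. Cpt1a, the gate of mitochondrial fat entry, was not called, at 0.41 ± 0.16 (adjusted p = 0.0858). With sex as a covariate 11 of 27 amino acid genes, 13 of 28 oxidation genes and 7 of 23 peroxisome genes rose over 12 libraries and 14, 10 and 10 over 18, against 21, 18 and 14 in WT kidney.

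Respiratory chain genes rose by small amounts. Of 34 nuclear genes of oxidative phosphorylation all were positive and 23 rose, with a median of 0.42. Sdha, the flavoprotein of complex II, measured 443, 416 and 448 CPM at 1 week and 609, 689 and 580.5 CPM at 2 weeks (log2 fold change 0.52 ± 0.10, adjusted p = 0.00202), and Sdhb, its iron-sulfur subunit, 143, 113 and 129.8 CPM at 1 week and 221, 222 and 177 CPM at 2 weeks (log2 fold change 0.68 ± 0.14, adjusted p = 0.00374). The counts moved with the fit: between 6 and 27 rose in the fits without 1 library, the fewest without replicate 2 of 1 week, 4 rose with library totals and, with sex as a covariate, 3 over 12 libraries and 5 over 18. In WT kidney 33 rose. For the citrate cycle the corresponding counts were 7 to 16, 6, 2, 5 and 18. Cs, citrate synthase, was not called, at 260.0, 266 and 284 CPM at 1 week and 256, 332 and 319.9 CPM at 2 weeks (log2 fold change 0.17 ± 0.12, adjusted p = 0.357). Of the 13 protein genes of the mitochondrial genome 9 rose and 0 fell, and mt-Co1 had the highest FPKM (fragments scaled for gene length and library size) among the genes with the largest rises on that scale, 22648 at 1 week and 30288 at 2 weeks. Glycolysis genes were called in 3 of 18, near the 19.5% of all genes, with 2 rises and 1 fall (median 0.20, and -0.02 with library totals). Slc2a3, a glucose transporter of immature and neural tissue, was the fall, at 4.25, 5.30 and 5.33 CPM at 1 week and 0.818, 0.812 and 1.66 CPM at 2 weeks (log2 fold change -2.17 ± 0.35, adjusted p = 5.63e-04). Glycolysis rises and falls were 7 and 1 in WT kidney. Glycolysis counts in KO kidney with sex as a covariate were 0 and 1 over 12 libraries and 0 and 1 over 18.

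**Figure D4:**
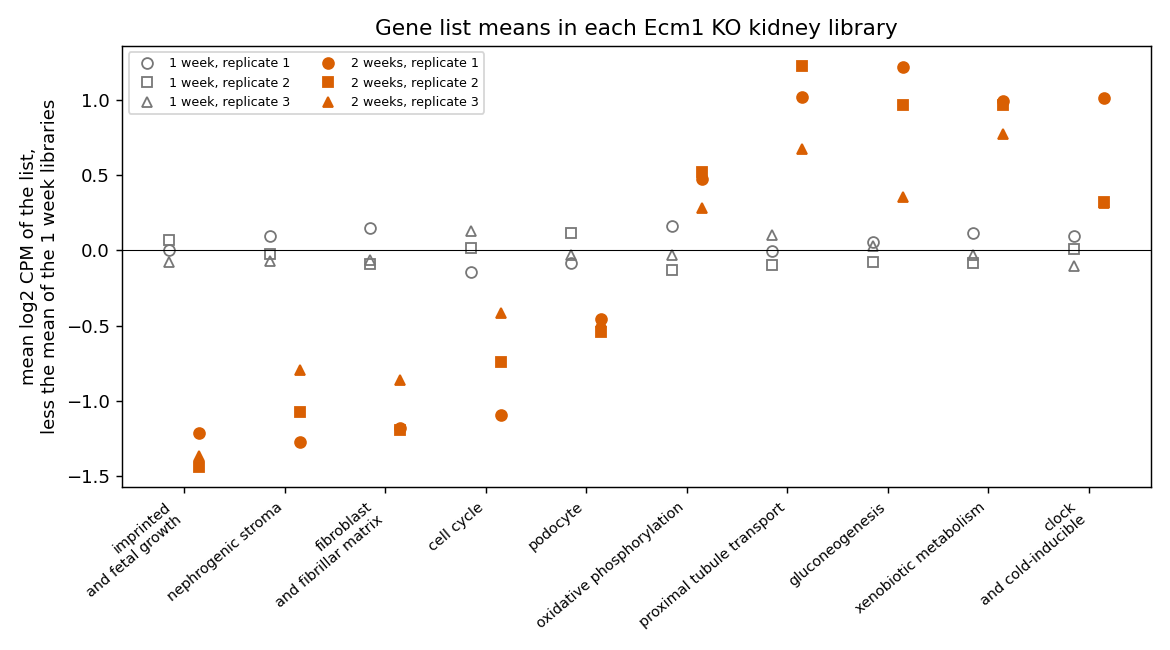
Mean log2 CPM of 10 gene lists in each Ecm1 KO kidney library, less the mean of the 1 week libraries (open symbols 1 week, filled symbols 2 weeks, shapes for replicates). In gluconeogenesis the 2 week replicates stood at 1.22, 0.97 and 0.36, and in the cell cycle at -1.09, -0.74 and -0.42, so replicate 3 lay nearest to 1 week in both.

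Enzymes of drug, steroid and lipid metabolism rose in 20 of 38 with 0 falls (median 1.07). Cyp2e1, a cytochrome P450 of small solvents, measured 4.86, 3.48 and 3.80 CPM at 1 week and 75.2, 62.7 and 23.3 CPM at 2 weeks (log2 fold change 3.72 ± 0.64, adjusted p = 9.25e-04). Ces1d, a carboxylesterase, measured 2.85, 2.14 and 4.23 CPM at 1 week and 32.8, 65.9 and 42.1 CPM at 2 weeks (log2 fold change 3.93 ± 0.46, adjusted p = 5.52e-05), and Ugt3a2, a glycosyltransferase, 76.9, 77.6 and 63.8 CPM at 1 week and 524, 477 and 346 CPM at 2 weeks (log2 fold change 2.63 ± 0.22, adjusted p = 4.94e-06). The ages did not overlap in these 3. Genes of this kind have close copies, and reads may be shared within the Ces, Ugt, Gst and Cyp4a families. Drug metabolism rises and falls were 21 and 0 in WT kidney. Drug metabolism counts in KO kidney with sex as a covariate were 13 and 0 over 12 libraries and 18 and 2 over 18. Genes with a known sex bias in adult mouse kidney rose on both sides: 5 of 15 male-biased and 3 of 11 female-biased genes, with 0 falls. Male-biased rises and falls were 5 and 0 in WT kidney. Male-biased counts in KO kidney with sex as a covariate were 3 and 1 over 12 libraries and 2 and 2 over 18. The median of the male-biased list turned from 0.66 to -0.49 with the covariate over 18 libraries, but stood at 0.59 with the covariate over 12. Female-biased rises and falls were 5 and 0 in WT kidney. Female-biased counts in KO kidney with sex as a covariate were 6 and 0 over 12 libraries and 5 and 0 over 18. Kap, an abundant protein of the proximal tubule, measured 1449, 1007 and 1186 CPM at 1 week and 7294, 5595 and 4155 CPM at 2 weeks (log2 fold change 2.23 ± 0.25, adjusted p = 5.48e-05), and stood at 1.97 in WT kidney and, with sex as a covariate, at 2.27 over 12 libraries and 2.15 over 18 in KO kidney. Cyp4a14, which runs higher in females, measured 329.8, 248 and 262 CPM at 1 week and 2081, 993 and 644 CPM at 2 weeks (log2 fold change 2.15 ± 0.50, adjusted p = 0.00672).

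Vitamin D enzymes moved in opposite directions. Cyp27b1, which makes active vitamin D, measured 8.11, 4.34 and 4.04 CPM at 1 week and 157, 101 and 25.1 CPM at 2 weeks (log2 fold change 4.09 ± 0.78, adjusted p = 0.00197). Cyp24a1, which breaks it down, measured 65.9, 101 and 76.4 CPM at 1 week and 14.9, 20.2 and 29.2 CPM at 2 weeks (log2 fold change -1.92 ± 0.60, adjusted p = 0.0352), a call lost in 5 of the 6 fits without 1 library, where its adjusted p ran from 0.0424 to 0.114. Neither gene overlapped between ages. In WT kidney Cyp27b1 stood at 4.00 and Cyp24a1 at 0.06, and the difference between genotypes in the Cyp24a1 step was not called (unadjusted p = 0.03, adjusted p = 1). Vdr, the vitamin D receptor, was not called, with 0.28 ± 0.12 (adjusted p = 0.124).

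In the loop and distal tubule 11 of 30 genes rose and 0 fell (median 0.44). Egf, which the distal tubule secretes as a growth factor and a regulator of magnesium uptake, measured 85.0, 93.5 and 111 CPM at 1 week and 679, 1521 and 685 CPM at 2 weeks (log2 fold change 3.32 ± 0.29, adjusted p = 8.01e-06). Umod, the most abundant protein of urine, measured 790.0, 909 and 1006 CPM at 1 week and 1471, 1879 and 1702 CPM at 2 weeks (log2 fold change 0.90 ± 0.20, adjusted p = 0.00502), and Slc12a1, the salt transporter of the thick limb, 1128, 1515 and 1383 CPM at 1 week and 1924, 2216 and 2128 CPM at 2 weeks (log2 fold change 0.64 ± 0.14, adjusted p = 0.00503). Egf thus rose by a log2 fold change of more than 3 where the thick limb genes rose by less than 1. Trpm6, the magnesium channel of the distal tubule, rose by 0.96, while Slc12a3, the thiazide-sensitive transporter, chosen after its values were seen, was not called, at 0.52 ± 0.22 (adjusted p = 0.0986). Between 7 and 13 of the list rose in the fits without 1 library. Loop and distal rises and falls were 12 and 0 in WT kidney. Loop and distal counts in KO kidney with sex as a covariate were 2 and 1 over 12 libraries and 4 and 1 over 18. Egf stood at 3.11 over 12 libraries (adjusted p = 0.00583) and 3.20 over 18.

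In the collecting duct 5 of 17 principal cell genes and 5 of 21 intercalated cell genes rose and 0 fell. Principal cell rises and falls were 5 and 0 in WT kidney. Principal cell counts in KO kidney with sex as a covariate were 1 and 0 over 12 libraries and 2 and 0 over 18. Intercalated cell rises and falls were 5 and 0 in WT kidney. Intercalated cell counts in KO kidney with sex as a covariate were 3 and 0 over 12 libraries and 5 and 0 over 18. Aqp2, the vasopressin-regulated water channel, measured 224, 281 and 247 CPM at 1 week and 214, 252 and 377 CPM at 2 weeks (log2 fold change 0.16 ± 0.32, adjusted p = 0.767). Scnn1a, the alpha subunit of the sodium channel, measured 89.4, 90.9 and 98.1 CPM at 1 week and 214, 218 and 139.6 CPM at 2 weeks (log2 fold change 1.04 ± 0.20, adjusted p = 0.00184), whereas Scnn1g, the gamma subunit, chosen after its values were seen, was at -0.10 ± 0.14 (adjusted p = 0.691). Slc26a4, the chloride and bicarbonate exchanger of intercalated cells, measured 20.7, 19.1 and 25 CPM at 1 week and 67.6, 35.1 and 39.0 CPM at 2 weeks (log2 fold change 1.12 ± 0.21, adjusted p = 0.00176). Of medullary genes 6 of 17 rose and 1 fell. Slc14a2, the urea transporter, measured 112, 75.1 and 123 CPM at 1 week and 197, 286 and 338 CPM at 2 weeks (log2 fold change 1.40 ± 0.34, adjusted p = 0.0086), and Slc5a3, which takes up the osmolyte inositol, 72.7, 90.1 and 99.1 CPM at 1 week and 158, 226 and 227 CPM at 2 weeks (log2 fold change 1.22 ± 0.22, adjusted p = 0.00147). Akr1b3, the aldose reductase that makes sorbitol in the medulla, varied within each age, at 336, 69.3 and 97.8 CPM at 1 week and 37.0, 208 and 516 CPM at 2 weeks (log2 fold change 0.60 ± 0.88, adjusted p = 0.688). Its 1 week replicate 1 and 2 week replicate 3 were the high libraries. Medullary rises and falls were 5 and 1 in WT kidney. Medullary counts in KO kidney with sex as a covariate were 2 and 0 over 12 libraries and 2 and 0 over 18.

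Hormone and growth factor genes had no common direction. In the renin-angiotensin system 2 of 12 rose and 4 fell. Agt, which encodes angiotensinogen, measured 51.0, 38.2 and 47.9 CPM at 1 week and 190.3, 123 and 136 CPM at 2 weeks (log2 fold change 1.71 ± 0.24, adjusted p = 1.97e-04), and Agtr2, the receptor abundant in fetal tissue, 13.8, 11.5 and 15 CPM at 1 week and 2.67, 2.21 and 2.70 CPM at 2 weeks (log2 fold change -2.41 ± 0.36, adjusted p = 3.58e-04). Ren1, renin itself, measured 178, 307 and 216 CPM at 1 week and 66.1, 119 and 103 CPM at 2 weeks (log2 fold change -1.28 ± 0.38, adjusted p = 0.025), a call lost in 2 of the 6 fits without 1 library, where its adjusted p ran from 0.0293 to 0.115. Substrate and fetal receptor thus changed in opposite directions. Of 39 growth factor and receptor genes 7 rose and 7 fell, with Egf and Igf2 at the 2 ends. Egfr, the receptor of Egf, measured 39.1, 33.4 and 38.7 CPM at 1 week and 82.7, 62.8 and 61.4 CPM at 2 weeks (log2 fold change 0.89 ± 0.17, adjusted p = 0.00199), and Pdgfa, a mesenchymal growth factor, 47.6, 46.8 and 48.1 CPM at 1 week and 32.3, 23.7 and 33.9 CPM at 2 weeks (log2 fold change -0.67 ± 0.13, adjusted p = 0.00235). Renin-angiotensin rises and falls were 2 and 3 in WT kidney. Renin-angiotensin counts in KO kidney with sex as a covariate were 1 and 2 over 12 libraries and 1 and 1 over 18. Growth factor rises and falls were 6 and 8 in WT kidney. Growth factor counts in KO kidney with sex as a covariate were 3 and 3 over 12 libraries and 3 and 2 over 18.

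Developmental signalling fell in 11 of 44 genes of the Wnt, Notch, BMP and hedgehog pathways and rose in 1 (median -0.51). Gli1, a target and effector of hedgehog signalling, measured 13.7, 15.3 and 14.8 CPM at 1 week and 3.76, 1.94 and 4.74 CPM at 2 weeks (log2 fold change -2.07 ± 0.34, adjusted p = 6.78e-04), and Gli2 9.47, 10.5 and 8.60 CPM at 1 week and 1.58, 1.26 and 3.27 CPM at 2 weeks (log2 fold change -2.22 ± 0.43, adjusted p = 0.0022). Shh, the ligand, measured 1.40, 1.07 and 2.16 CPM at 1 week and 0.436, 0.993 and 1.80 CPM at 2 weeks (log2 fold change -0.51 ± 0.65, adjusted p = 0.64), so the ligand overlapped between ages where both effectors did not. Sfrp1, a secreted Wnt inhibitor, measured 639, 609 and 598 CPM at 1 week and 266, 342 and 352 CPM at 2 weeks (log2 fold change -0.94 ± 0.15, adjusted p = 4.24e-04). Heyl, a Notch target of vascular mural cells, fell by 1.23. Signalling rises and falls were 1 and 12 in WT kidney. Signalling counts in KO kidney with sex as a covariate were 0 and 5 over 12 libraries and 0 and 5 over 18.

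Of 20 clock and cold-inducible genes 7 rose and 0 fell. Hlf, an output factor of the clock, measured 29.6, 24.1 and 25.6 CPM at 1 week and 96.9, 94.4 and 70.3 CPM at 2 weeks (log2 fold change 1.72 ± 0.19, adjusted p = 4.52e-05), and Tef, its relative, 91.3, 79.6 and 88.4 CPM at 1 week and 220.1, 180.4 and 137 CPM at 2 weeks (log2 fold change 1.05 ± 0.19, adjusted p = 0.00114). Per1, a core repressor that glucocorticoids also induce, measured 35.7, 31.1 and 23.0 CPM at 1 week and 184, 68.0 and 80.5 CPM at 2 weeks (log2 fold change 1.89 ± 0.39, adjusted p = 0.00333). In Per1 replicate 1 of 2 weeks stood at more than 2 times the other libraries of its age. Arntl, the core activator, was not called (0.33 ± 0.31). The labels do not give the hour of sampling. The activator binds the E-box CACGTG. Of 22 starts of 16 matched genes of this list, 6 (27.3%) held that E-box in the 250 bases before. Its share was 6.02% over all starts and 7.89% over starts of tested genes. The Per1 promoter, which holds 1, is printed for that reason, 5′ to 3′ from GRCm38.p6 with the E-box in capitals.
Per1, chr11:69098736-69098835, plus strand: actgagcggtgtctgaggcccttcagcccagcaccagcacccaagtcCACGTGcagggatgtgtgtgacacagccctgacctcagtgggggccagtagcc
Clock and cold-inducible rises and falls were 6 and 0 in WT kidney. Clock and cold-inducible counts in KO kidney with sex as a covariate were 7 and 0 over 12 libraries and 7 and 0 over 18.

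Macrophage and MHC class II genes fell in 4 of 19 and rose in 2, against 19.5% called over all genes, and the other immune, stress and injury lists had at most 3 calls each. Mrc1, a receptor of resident macrophages, measured 23.4, 30.4 and 24.0 CPM at 1 week and 11.9, 12.3 and 16.0 CPM at 2 weeks (log2 fold change -0.95 ± 0.16, adjusted p = 0.00103) and H2-Aa, an antigen-presenting chain, 14.2, 8.88 and 9.95 CPM at 1 week and 21.7, 23.9 and 17.8 CPM at 2 weeks (log2 fold change 0.94 ± 0.17, adjusted p = 0.00154). Of lymphocyte and neutrophil genes none of 10 was called, and of kidney injury genes 0 of 13 rose. Havcr1, the injury marker KIM-1, measured 0.833, 0.535 and 0.384 CPM at 1 week and 0.491, 0.316 and 0.331 CPM at 2 weeks. Of 19 interferon-induced genes 1 rose, Ifit3, by 1.34. Herpud1, of endoplasmic reticulum protein quality control, measured 65.5, 59.1 and 59.5 CPM at 1 week and 482, 247 and 164 CPM at 2 weeks (log2 fold change 2.28 ± 0.34, adjusted p = 3.58e-04), 1 of 2 rises in 20 genes of heat shock and endoplasmic reticulum stress. Among 18 immediate-early genes 2 rose, and Fos, the founding member of this class, measured 1.80, 1.77 and 1.63 CPM at 1 week and 1.31, 1.94 and 16.3 CPM at 2 weeks, with replicate 3 of 2 weeks apart from the others. In the stress and immediate-early lists the share of rises thus lay near the 10.3% over all genes tested. Macrophage rises and falls were 2 and 2 in WT kidney. Macrophage counts in KO kidney with sex as a covariate were 0 and 1 over 12 libraries and 1 and 3 over 18. None of 24 listed ribosomal protein genes was called, while 7 fell with library totals, where 19.4% of all genes fell.

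Red cell genes fell in 8 of 14 (median -2.23). Alas2, the haem synthesis enzyme of erythroid cells, measured 24.8, 27.9 and 30.6 CPM at 1 week and 3.05, 3.43 and 1.99 CPM at 2 weeks (log2 fold change -3.30 ± 0.79, adjusted p = 0.0085). Hba-a1, a haemoglobin alpha chain nearly identical to Hba-a2, measured 383, 353 and 466 CPM at 1 week and 29.4, 44.8 and 29.1 CPM at 2 weeks (log2 fold change -3.54 ± 0.92, adjusted p = 0.013). The summed level of the list was 2026, 1851 and 2191 CPM in the KO libraries of 1 week and 426, 634 and 459 CPM at 2 weeks. In WT libraries it was 2384, 2119 and 1649.9 CPM at 1 week and 520.0, 792 and 2377 CPM at 2 weeks, and there 1 gene rose and 0 fell. Replicate 3 of WT at 2 weeks thus held as much as the libraries of 1 week. Between 4 and 7 genes of the list fell in KO kidney without 1 library, the fewest without replicate 2 of 1 week. Red cell rises and falls were 1 and 0 in WT kidney. Red cell counts in KO kidney with sex as a covariate were 0 and 5 over 12 libraries and 1 and 7 over 18. The part of residual blood in these values was not tested.

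Markers of neighbouring tissues gave few calls in the KO step. None of 17 hepatocyte, 10 adipocyte or 3 skeletal muscle genes was called, and Alb, the main liver transcript, measured 6.27, 0.696 and 2.21 CPM at 1 week and 0.491, 0.722 and 2.46 CPM at 2 weeks. Of 5 adrenal genes 1 fell, Mc2r, at -3.70 ± 1.02, a call lost in 2 of the 6 fits without 1 library, where its adjusted p ran from 0.0375 to 0.0796, while Star, of steroid synthesis, measured 6.27, 4.87 and 5.43 CPM at 1 week and 6.11, 5.37 and 4.36 CPM at 2 weeks. Nerve and glial genes fell in 2 of 8, led by Ncam1, an adhesion molecule of neural and developing kidney tissue, at 81.8, 101 and 90.2 CPM at 1 week and 25.3, 23.9 and 35.0 CPM at 2 weeks (log2 fold change -1.69 ± 0.19, adjusted p = 4.96e-05). Of 11 urothelial genes 2 rose, Krt7 and Krt5, whose calls were lost in 1 and 5 of the 6 fits without 1 library, and Upk1a, which defines that epithelium, was not called at -0.02 ± 0.41.

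The largest single changes included genes near 0 at 1 of the ages. Mchr1, the receptor of melanin-concentrating hormone, had 0 counts over the 1 week group and 95 over the 2 week group, at least 32.0-fold higher against a floor of 3 counts over the group. Serpina1f, a member of the serpin family, measured 1.05, 1.34 and 1.3 CPM at 1 week and 29.8, 43.1 and 21.1 CPM at 2 weeks (log2 fold change 4.67 ± 0.34, adjusted p = 3.61e-06). Zbtb16, a transcription factor that glucocorticoids induce, measured 0.614, 0.910 and 0.817 CPM at 1 week and 50.4, 29.4 and 2.70 CPM at 2 weeks (log2 fold change 5.14 ± 1.21, adjusted p = 0.00761), with replicate 3 of 2 weeks far below its group. Gc, the vitamin D binding protein, measured 5.04, 2.25 and 3.89 CPM at 1 week and 104, 57.3 and 49.6 CPM at 2 weeks (log2 fold change 4.22 ± 0.63, adjusted p = 3.58e-04). Among falls, Adamts19, a matrix protease gene, measured 5.83, 4.87 and 5.96 CPM at 1 week and 0.0545, 0 and 0.142 CPM at 2 weeks (log2 fold change -6.27 ± 0.66, adjusted p = 1.03e-04), and Has2, a hyaluronan synthase, 3.20, 2.30 and 4.42 CPM at 1 week and 0, 0 and 0.189 CPM at 2 weeks (log2 fold change -5.54 ± 0.74, adjusted p = 4.37e-04). Hdc, which makes histamine, measured 122, 163 and 94.3 CPM at 1 week and 13.8, 9.57 and 7.39 CPM at 2 weeks (log2 fold change -3.63 ± 0.39, adjusted p = 3.46e-05), and Afp, the fetal plasma protein, 44.9, 68.0 and 59.9 CPM at 1 week and 9.54, 2.62 and 1.85 CPM at 2 weeks (log2 fold change -3.64 ± 0.65, adjusted p = 0.00118). All 8 separated the ages, but the rule for the largest changes took only genes without overlap. On the FPKM scale, on which genes can be set against each other, the largest rises included Gpx3, the plasma glutathione peroxidase made by the kidney, from 2579.6 ± 268 to 8082 ± 2494 FPKM (SD, n = 3), and Kap, from 2102 ± 371 to 8349 ± 1708 FPKM. Tmsb4x, an actin-binding peptide gene, was among the largest falls, from 565 ± 154 to 272 ± 56.5 FPKM.

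WT kidney took the same step in most genes called in KO kidney. Of the KO calls 2401 were also called in WT with the same sign, which is 83.3% of the KO calls and 69.0% of the WT calls, and 0 were called in opposite directions. Of the 2881 KO calls 2875 (99.8%) had the same sign in WT. The difference of the steps, tested as an interaction in the same edgeR model, called 0 genes (percent called 0), with 127 at an unadjusted p under 0.05 and a smallest adjusted p of 0.999933. DESeq2 called 2, the Y-linked Ddx3y and Uty, and had 150 at an unadjusted p under 0.05. Neither tool thus called a difference outside the Y chromosome, which does not show that the 2 steps are alike. This difference mixes genotype with sex. Y-linked RNA was all but absent in KO kidney at 1 week and present in every KO library at 2 weeks. WT kidney held both sexes at each age. With sex as a covariate the difference called 0 genes in either direction in each of the covariate fits. Those fits take the effect of sex as equal in both genotypes.

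**Figure D5:**
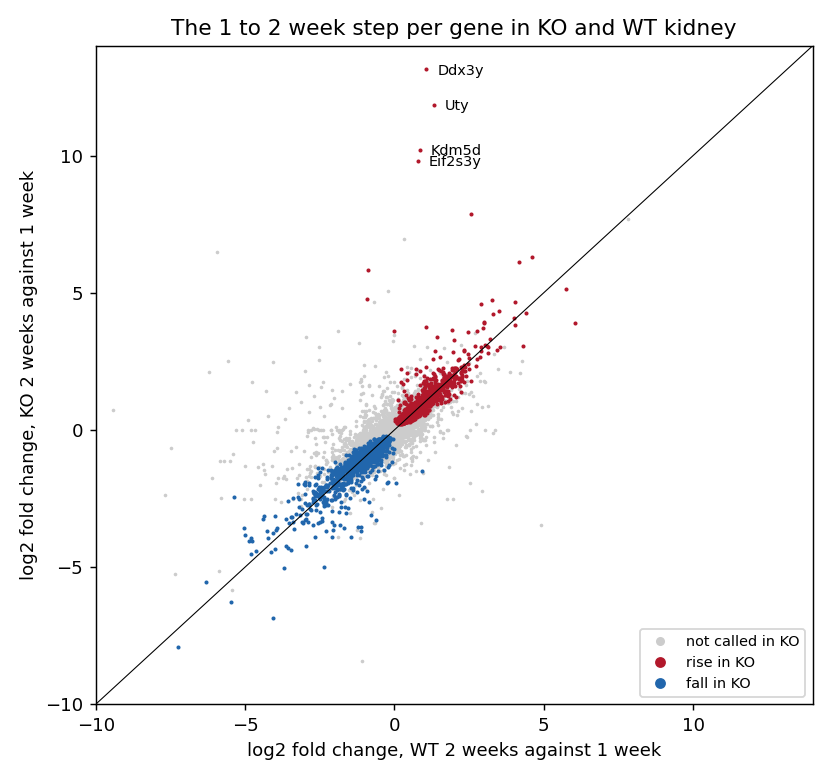
Log2 fold change of each tested gene between 1 and 2 weeks in WT kidney (horizontal) and Ecm1 KO kidney (vertical), with genes called in KO in red and blue and a line of equal steps. Of the called genes 2875 of 2881 share their sign in WT, and the 4 named Y-linked genes stand at 9.81 to 13.15 in KO.

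The genes with the smallest interaction p are given as values. Rell2, of the RELT receptor family, measured 0.351, 0.535 and 0.529 CPM at 1 week and 0.164, 0.135 and 0.189 CPM at 2 weeks in KO kidney (log2 fold change -1.49 ± 0.43, adjusted p = 0.0223 with edgeR). Its call was lost in 4 of the 6 fits without 1 library, where its adjusted p ran from 0.0284 to 0.0989. In WT kidney Rell2 stood at 0.93, and the interaction had an unadjusted p of 7.37e-04 with edgeR. Mab21l3 stood at -0.38 in KO and 1.00 in WT (unadjusted p = 0.0011), and Tmem132d at -0.77 and -3.45 (unadjusted p = 0.00116). Each had an adjusted p of 0.999933. Of 14 red cell genes 4 had an unadjusted interaction p under 0.05, as did 5 of 17 hepatocyte genes. For the hepatocyte list, replicate 3 of WT at 1 week held 1041 CPM of hepatocyte and 505 CPM of adrenal transcripts, against 111 to 152 and 6.85 to 19.8 CPM in the KO libraries of that age.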

How the data were processed

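Kidney RNA from 6 groups of 3 libraries was sequenced after mRNA capture, per the labels' protocols. The authors deposited an estimated count per gene and library, part of them fractional, and an FPKM value, a level per gene length, per the file headers. Tools named in the submitters' processing notes, without their roles, are RSEM, StringTie 1.3.1, HISAT2 2.1.0, Bowtie2 and fastp. The genome build, annotation and strand setting were not given in the sources used. Reads of overlapping or near-identical genes (Hba-a1 and Hba-a2, and the Ugt, Gst, Ces and Cyp4a families) may be shared.

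The deposited counts were rounded to whole numbers and tested with edgeR 4.0.16 in R 4.3.3 (quasi-likelihood F test, TMM scaling, default filter by group). All 18 libraries, with total counts from 14930565 to 21427764, entered 1 model with 6 group means and 12 residual degrees of freedom, since 3 against 3 libraries alone give few. Of 22063 genes 14774 were tested. Benjamini-Hochberg adjustment ran over all tested genes. DESeq2 1.42.0, limma 3.58.1 on log2(FPKM + 1) and log2(FPKM + 0.1), other filters, a replicate block, each library left out, sex as a covariate and library totals were alternatives; library totals and the covariate fit of 12 libraries were chosen after seeing the data. Sex was taken from Y-linked genes, as a summed level above 1 CPM. The floor for a group at 0 was 3 counts.

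The members and the 52 gene lists were chosen with earlier results of these data known. Genes named are Ecm1, the 15 largest called rises and falls of at least 1 CPM whose libraries do not overlap, the 8 called rises and falls largest in FPKM, the 6 members of each list with the smallest p, the first 3 members of each cell type list, the 3 largest called rises and falls of each symbol family, and the 5 smallest interaction p-values. Named outside this rule, chosen after their values were seen, were Akr1b3, Arntl, Col1a1, Cpt1a, Cs, Cubn, Fos, Havcr1, Igf1r, Lrp2, Mki67, Pck1, Scnn1g, Slc12a3, Vdr, Wnt4 and the glucocorticoid-induced genes of the closing section. Same-numbered KO libraries of 1 and 2 weeks had correlations of their deviations of 0.088, 0.033 and 0.149, so the numbers were not taken to pair them. Promoters are RefSeq sequences of GRCm38.p6, matched by symbol. Some members of the lists are counted but not reported by name here.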

Additional observations from a re-analysis of the deposited data

How the results depend on the processing

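The KO step counted 1527 rises and 1354 falls. Each count stayed within 1.5 times of these with DESeq2, DESeq2 size factors, no filter on low counts, a filter at 1 CPM, only the 2 groups compared and the replicate block, which gave 1587 rises and 1426 falls. It was 754 and 3103 with limma on log2(FPKM + 1), 739 and 2658 on log2(FPKM + 0.1), 759 and 2859 with library totals, 723 and 746 with sex as a covariate over 18 libraries, and 515 and 615 over 12. Without 1 KO library rises ran from 896 (without replicate 2 of 1 week) to 1686 and falls from 751 (without replicate 2 of 2 weeks) to 1308; without replicate 2 of 2 weeks 951 rose, and without replicate 2 of 1 week 805 fell. The WT step, 1842 rises and 1639 falls, was 851 and 3501 on log2(FPKM + 1), 837 and 3142 on log2(FPKM + 0.1) and 871 and 3338 with library totals, and without 1 WT library rises ran from 1141 (without replicate 1 of 1 week) to 1872 and falls from 1078 (without replicate 2 of 2 weeks) to 1579. The difference of the steps, 0 genes in either direction, was 2 genes higher with DESeq2 and 0 with the replicate block within age, where 272 had an unadjusted p under 0.05 with edgeR. Same-numbered libraries of WT and KO correlated in their deviations at 2 weeks (0.68, 0.31 and 0.46) but not over age. Replicate 2 of WT correlated as much with replicate 3 of KO (0.35), and the other differently numbered pairs of 2 weeks ran from -0.56 to 0.063. With sex as a covariate the signs of Eif2s3y (-2.42 and -2.50 over 18 and 12 libraries) and Uty (-0.15 and -0.0079) turned; both are Y-linked. The cause of the other shifts was not tested. The filter on low counts left 7289 genes untested at this depth.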

Other observations

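A set of genes that glucocorticoids are known to induce, chosen after their values were seen, was higher at 2 weeks. Errfi1, an inhibitor of the Egf receptor, measured 73.2, 56.6 and 66.3 CPM at 1 week and 539.6, 261 and 248 CPM at 2 weeks (log2 fold change 2.42 ± 0.38, adjusted p = 4.56e-04 with edgeR). Tsc22d3, the leucine zipper protein GILZ, measured 40.4, 26.4 and 34.2 CPM at 1 week and 156, 110.0 and 94.0 CPM at 2 weeks (log2 fold change 1.83 ± 0.35). Klf9, a zinc finger factor, rose by 1.72 ± 0.33 and Zfp36, which destabilises mRNA, by 1.60 ± 0.39 on the log2 scale. In these 4 genes the ages did not overlap and the call held in each of the 6 fits without 1 library. The WT step of the 4 was 2.47, 1.61, 1.88 and 1.32 in the same order. Fkbp5, a chaperone of the receptor, overlapped between ages, at 23.8, 26.7 and 22.0 CPM at 1 week and 168, 108 and 21.0 CPM at 2 weeks, and its call was lost in 5 of those fits. Replicate 3 of 2 weeks was its low library, as it was for Zbtb16. As these genes were picked for their rise, their number supports nothing.

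Symbol families counted whole differed in direction. Over all tested genes 10.3% rose and 9.16% fell, 5.14% and 19.4% did with library totals, and 11.1% fell in WT kidney. Of 53 tested protocadherin genes (Pcdh), cell adhesion proteins of clustered loci, 17 fell and 0 rose, and 18 fell in WT kidney. Of 42 ABC transporter genes 11 rose and 0 fell, and 7 rose and 2 fell with library totals. Potassium channel genes (Kcn) had 9 rises and 9 falls among 67 (13.4% each), and 5 and 14 with library totals, not far from the shares over all genes. Claudin genes (Cldn), which seal tight junctions, had 3 rises and 3 falls among 18, and 1 and 7 with library totals. Of 31 Hox genes, which keep positional identity, 1 rose and 5 fell, and 0 and 9 did with library totals. Of 93 genes with symbols starting Rpl or Rps 1 fell, the kinase gene Rps6ka6 at -0.43. With library totals 18 fell, near the share over all genes.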
